A study of Mus musculus with 2 samples.

Results

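RNA of the ventral midbrain, the region that holds the dopaminergic (DA) neurons of the substantia nigra and the ventral tegmental area, was read for the genes of the neuronal nicotinic acetylcholine receptor. The members were the 9 genes whose symbols name a neuronal subunit, Chrna2 to Chrna7 and Chrnb2 to Chrnb4, and all 9 were found among the 31252 gene rows. There was 1 library from a control (Ctrl) and 1 from a COUP-TFII-overexpressing (OE) mouse line, called the Ctrl-labelled and the OE-labelled library here, both at 2 months of age and on an incipient congenic C57BL/6 background. Both genotypes carried Slc6a3-Cre, a Cre recombinase driven from the dopamine transporter gene, and only OE carried the CAG-S-COUP-TFII allele that Cre switches on. By the crosses in the study's methods, the littermates would also share a floxed Tfam allele and a tdTomato reporter, which the sample labels do not list. Cre acts in neurons that express Slc6a3, whereas the RNA came from the whole tissue piece, and the sources used here do not say whether a library came from 1 animal or from a pool.

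Neuronal nicotinic receptors are channels of several subunits that open when acetylcholine or nicotine binds and let cations into the cell. Chrna2, Chrna3, Chrna4 and Chrna6 encode subunits that bind acetylcholine together with a partner encoded by Chrnb2 or Chrnb4, Chrna5 and Chrnb3 encode accessory subunits, and Chrna7 encodes a subunit that can form a channel on its own. DA neurons are known for receptors that hold the Chrna6 and Chrnb3 products beside those of Chrna4 and Chrnb2, through which nicotine and acetylcholine raise dopamine release. Receptors of Chrna3, Chrna5 and Chrnb4 are best known from the path between the medial habenula and the interpeduncular nucleus.

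The expected counts of the Ctrl-labelled library summed to 16984336 and those of the OE-labelled library to 21326632. Nr2f2, the gene of COUP-TFII and the gene that should be raised in OE, had 637 counts in the Ctrl-labelled library and 377 in the OE-labelled library, so that its log2 fold change was -1.07 with a 95% counting interval from -1.26 to -0.88. The direction of Nr2f2 was thus the reverse of the one that the labels imply. Whether the transcript of the allele is counted in the Nr2f2 row is not given in the sources used here. The row holds RNA of all cells of the tissue piece, so exchanged labels and a difference in tissue make-up cannot be told apart. Every direction in this text, captions included, follows the labels as given and sets the OE-labelled library over the Ctrl-labelled one. Were the labels of the libraries exchanged, each higher would read lower and each log2 fold change would change its sign. The labels name the cell type as DA neurons, but the myelin gene Mbp had 128974 and 139810 counts, so the libraries held RNA of other cells of the tissue too. In such bulk RNA, fewer cells of a type and less RNA per cell cannot be told apart. With 1 library per group no difference has a replicate check, and each interval covers counting error only.

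All 9 subunit genes passed the filter of a mean of at least 10 counts, and all 9 had a log2 fold change above 0. A gene was called where its log2 fold change passed 0.2, the threshold in the study's methods. By this rule 7 of the 9 members were called higher in the OE-labelled library and 0 lower, against 17.9% higher and 16.6% lower among the 15246 genes tested. For the same 7 the counting interval also lay above 0, which held for 9.90% of all tested genes on the higher side and 9.16% on the lower side. Past a log2 fold change of 1 there were 5 members, Chrna2, Chrna5, Chrna6, Chrnb3 and Chrnb4, against 1.53% of all tested genes higher and 1.28% lower by as much. The median of the 9 log2 fold changes was 1.04, and that of all tested genes was 0.005. Chrna2 passed the filter only through its counts in the OE-labelled library. Of the 8 members with at least 10 counts in both libraries, 6 were called higher and 0 lower, 4 passed log2 1, and the median was 0.91. The shares of all tested genes above rest on the filter on the mean, and none was computed with this stricter filter.

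**Figure D1:**
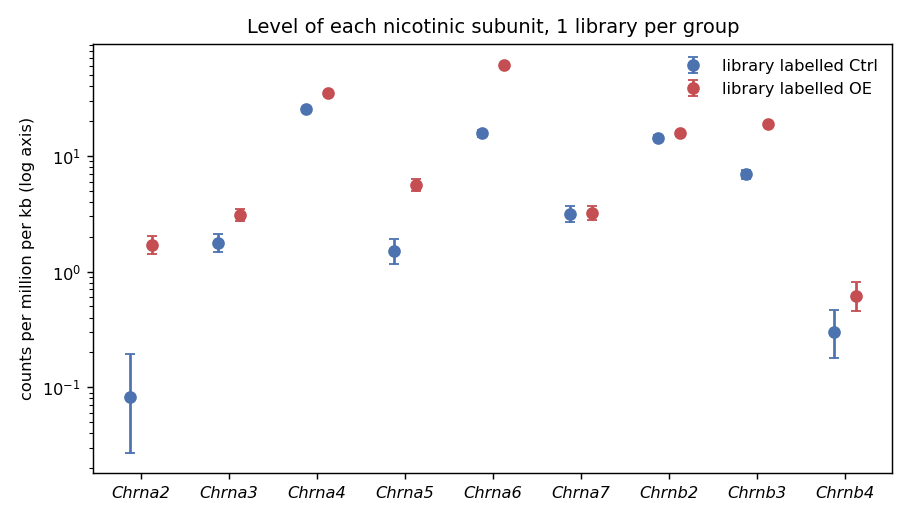
Level of each subunit gene, as its counts per 1000000 counts of the TMM-scaled library size and per kilobase of its longest transcript (log axis), in the Ctrl-labelled library and the OE-labelled library, with 95% Poisson counting intervals. Chrna6 lies at 15.7 and 61.0, whereas the points of Chrna7 lie at 3.14 and 3.23 with overlapping intervals.

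Among the acetylcholine-binding alpha subunits, Chrna6 had 781 counts in the Ctrl-labelled library and 3758 in the OE-labelled library. Its log2 fold change was 1.95 (interval 1.84 to 2.07), which is 3.87-fold. Chrna6 lies on chromosome 8 (GRCm38, the assembly also called mm10, chr8:27403212-27413944, minus strand). Chrna4, the alpha subunit of the most widespread receptor of the brain, had 1970 and 3378 counts, which gave a log2 fold change of 0.46 (interval 0.38 to 0.55) or 1.38-fold. Chrna4 (chr2:181018380-181043546, minus strand) thus had a smaller difference than Chrna6, and the 2 intervals did not overlap. Chrna3 (chr9:55010111-55026562, minus strand) had 132 and 284 counts and a log2 fold change of 0.79 (interval 0.49 to 1.10).

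Chrna2 showed the largest difference of the 9 members on the lowest count. It had 5 counts in the Ctrl-labelled library and 129 in the OE-labelled library, or 5.57 and 116 normalized counts. After a pseudocount of 0.5 normalized counts, its log2 fold change was 4.26, and its counting interval reached from 3.12 to 6.02. Chrna2 (chr14:66135039-66152948, plus strand) is known for a narrow expression in the brain, with the interpeduncular nucleus among its sites. With 5 counts on one side the size of this difference is known less well than that of Chrna6, as the width of its interval shows.

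Chrna7 and Chrnb2 were not called. Chrna7 (chr7:63098692-63212569, minus strand), whose product forms receptors with high permeability to calcium, had 151 and 193 counts and a log2 fold change of 0.041 (interval -0.27 to 0.36). A difference of Chrna7 between the libraries was not detectable at this depth. Chrnb2 (chr3:89746195-89764632, minus strand), the usual partner of Chrna4 and Chrna6, had 1574 and 2140 counts. Its log2 fold change of 0.13 was below the threshold, although its interval from 0.035 to 0.22 excluded 0. Chrnb4 (chr9:55028154-55048779, minus strand), the other beta subunit that takes part in binding acetylcholine, had 19 and 49 counts and a log2 fold change of 1.04 (interval 0.26 to 1.90).

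Both accessory subunits were higher in the OE-labelled library. Chrnb3 (chr8:27368711-27399730, plus strand) had 544 and 1838 counts and thus a log2 fold change of 1.44 (interval 1.30 to 1.58) or 2.72-fold. Chrna5 (chr9:54980880-55007779, plus strand) had 63 and 290 counts and a log2 fold change of 1.88 (interval 1.49 to 2.31) or 3.69-fold. The accessory subunits thus lay nearer to Chrna6 than to Chrna4 and Chrnb2, and the interval of Chrna5 overlapped that of Chrna6 whereas that of Chrnb3 did not.

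**Figure D2:**
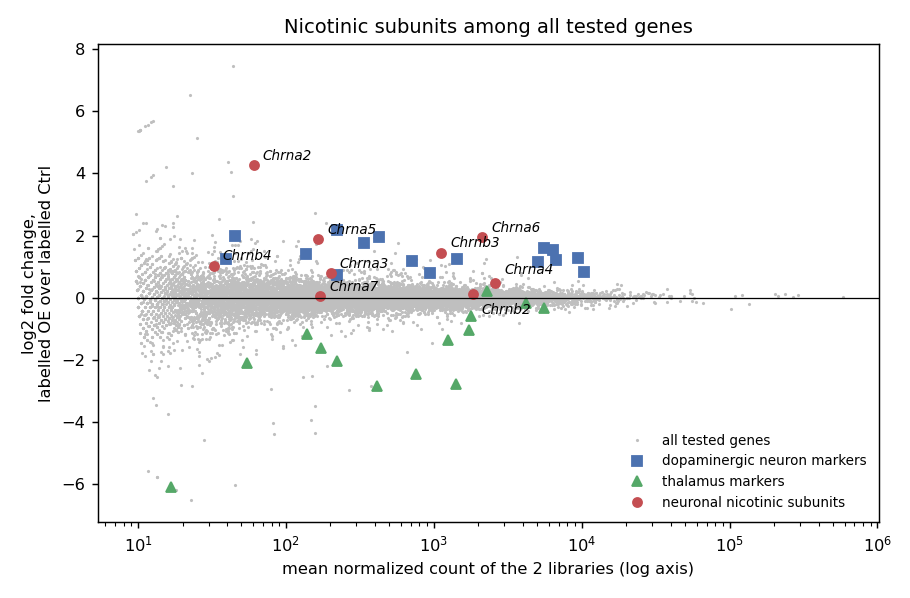
Log2 fold change of each tested gene, OE-labelled over Ctrl-labelled, against its mean normalized count (log axis), with the 9 subunit genes, the dopaminergic neuron markers and the thalamus markers drawn over all tested genes. Subunit genes range from 0.041 for Chrna7 to 4.26 for Chrna2, and the lowest triangle is Gbx2, whose count in the OE-labelled library was 0 and whose place depends on the pseudocount.

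Of the 9 subunit genes, 5 fall into 2 groups of neighbours. Chrnb3 and Chrna6 face each other on chromosome 8 with 3481 bp between them, and Chrna5, Chrna3 and Chrnb4 follow each other on chromosome 9. RefSeq's models of Chrna5 and Chrna3 overlap by 1304 bp on opposite strands, whereas those of GENCODE M21 leave a gap of 2331 bp. The libraries kept strand, but whether the counting used it is not given in the sources used here, so counts in this stretch could have been shared between Chrna5 and Chrna3. All 5 genes of the 2 groups were called higher in the OE-labelled library, with log2 fold changes from 0.79 to 1.95. Of the 4 genes that stand alone, Chrna2 and Chrna4 were called higher. Among all tested genes, 17.9% were called higher and 16.6% lower. Whether the place of a gene has a part in its difference was not tested.

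Upstream sequences are shown for the chromosome 9 group, since its 3 genes were all higher in the OE-labelled library, and for Chrnb2, which was not called. Each is the 250 bases before a transcription start as RefSeq gives it (GRCm38.p6), written on the strand of the gene. The printed Chrna5 window, like the Chrna4 window that is not printed, lies inside the GENCODE span given above for its gene. The Chrnb4 window and that of Chrna7, which is not printed, overlap theirs. Capitals mark AGGTCA or its complement TGACCT, the 6-base motif that nuclear receptors such as COUP-TFII are known to bind in pairs.
Chrna5 (chr9:54981238-54981487, plus strand): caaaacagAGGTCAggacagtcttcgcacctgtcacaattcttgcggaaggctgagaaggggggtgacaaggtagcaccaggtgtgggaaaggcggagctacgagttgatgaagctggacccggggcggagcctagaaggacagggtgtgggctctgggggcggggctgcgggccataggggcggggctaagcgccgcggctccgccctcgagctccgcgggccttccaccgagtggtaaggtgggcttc
Chrna3 (chr9:55026563-55026812, minus strand): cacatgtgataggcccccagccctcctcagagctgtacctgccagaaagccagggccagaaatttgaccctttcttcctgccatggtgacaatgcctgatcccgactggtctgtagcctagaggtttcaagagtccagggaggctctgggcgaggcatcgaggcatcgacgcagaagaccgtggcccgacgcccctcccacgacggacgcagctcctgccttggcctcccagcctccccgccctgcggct
Chrnb4 (chr9:55048545-55048794, minus strand): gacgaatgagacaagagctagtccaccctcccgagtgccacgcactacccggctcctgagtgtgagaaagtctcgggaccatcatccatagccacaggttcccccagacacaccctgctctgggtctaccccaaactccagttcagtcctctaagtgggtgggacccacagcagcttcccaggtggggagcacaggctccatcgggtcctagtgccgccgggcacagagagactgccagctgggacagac
Chrnb2 (chr3:89764633-89764882, minus strand): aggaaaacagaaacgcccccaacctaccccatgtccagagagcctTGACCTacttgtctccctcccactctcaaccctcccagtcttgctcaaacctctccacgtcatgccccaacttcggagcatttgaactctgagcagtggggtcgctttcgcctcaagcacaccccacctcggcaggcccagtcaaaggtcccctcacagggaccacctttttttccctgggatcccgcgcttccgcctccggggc

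The motif was searched as AGGTCA and TGACCT, which covers both strands. It stood once before this start of Chrna5, with its first base 242 bases from the start, and once before Chrnb2, 205 bases from the start. It was not found in the windows of Chrna3 and Chrnb4, nor in that of the other RefSeq start of Chrna5, in that of Chrna4 or in that of Chrna7. Of 32851 RefSeq windows of this length, 14.0% held it. Windows matched by symbol for 6 of the 9 members, and Chrna2, Chrna6 and Chrnb3 are named only. A match describes the letters and is no evidence of binding. Of the 2 genes with the motif, Chrna5 had a log2 fold change of 1.88 and Chrnb2 one of 0.13. For Chrna5, the window that held the motif is the one printed. The windows differed in composition. G and C made up 65.2% of the printed Chrna5 window, 63.2% of that of Chrna3, 61.2% of that of Chrnb4 and 59.6% of that of Chrnb2. In the windows not printed, they made up 40.0% for the other start of Chrna5, 74.4% for Chrna4 and 67.2% for Chrna7. The median over all windows was 52.4%.

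To compare the genes with each other, counts were expressed per 1000000 counts of the TMM-scaled library size and divided by the length of the longest GENCODE transcript in kilobases. On this scale the level of Chrna4 was the highest in the Ctrl-labelled library, at 25.3, followed by Chrna6 at 15.7, Chrnb2 at 14.4 and Chrnb3 at 6.94. The next levels in that library were 3.14 for Chrna7, 1.77 for Chrna3 and 1.51 for Chrna5, and Chrnb4 and Chrna2 were lowest at 0.299 and 0.0824. Counting intervals of neighbours in this order overlapped for Chrna6 with Chrnb2, for Chrna3 with Chrna5 and for Chrnb4 with Chrna2. In the OE-labelled library, Chrna6 stood first with a level of 61.0 and Chrna4 second with 34.9. Chrnb3 with 18.9 then lay above Chrnb2 with 15.8, Chrna5 followed with 5.59, and only Chrna7 and Chrna3, at 3.23 and 3.07, had overlapping intervals among neighbours in that library. Chrna2 with 1.71 and Chrnb4 with 0.620 were lowest there. Chrna4, Chrna6, Chrnb2 and Chrnb3, the subunits best known from DA neurons, were the 4 most abundant in both libraries, with the longest transcript, the median length and no length correction alike.

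Summed over the 9 members, the level was 69.2 in the Ctrl-labelled library and 145 in the OE-labelled library. With the longest transcript as length, Chrna6 made up 59.9% of the difference of 75.5, Chrnb3 15.8% and Chrna4 12.7%. The sums and these parts were computed with this length only and depend on it. They do not settle which gene made up most of the difference. The make-up of the transcripts also differed between the libraries. Chrna4 held 36.5% of the summed level in the Ctrl-labelled library and 24.1% in the OE-labelled library, and Chrnb2 held 20.8% and 10.9%. Chrna6 held 22.8% and 42.1%. Together Chrna6 and Chrnb3 held 32.8% and 55.2%, and Chrna4 and Chrnb2 held 57.4% and 35.0%. The size of each share depends on the transcript length used, since GENCODE lists several short Chrna4 transcripts. With the median transcript length of each gene, Chrna4 stood first in both libraries with 76.8% and 64.7%, and Chrna6 and Chrnb3 together held 12.1% and 25.4%. The direction of the difference for the 2 pairs was the same with the longest transcript, the median length and no length correction.

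**Figure D3:**
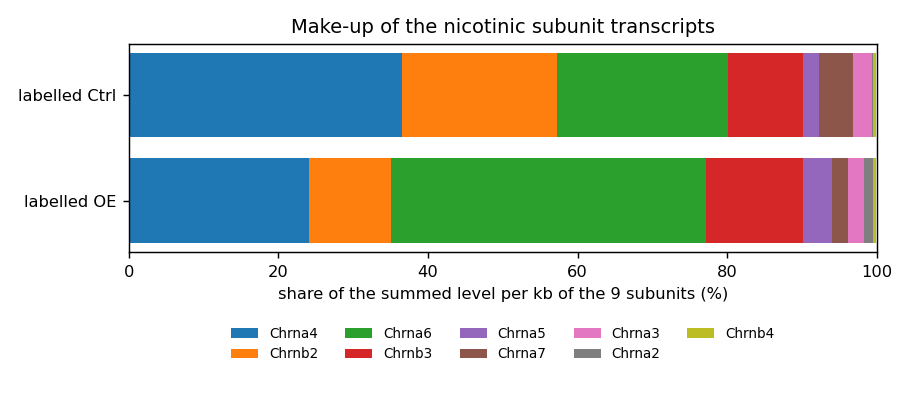
Share of each subunit gene in the summed level per kilobase of the 9 genes (%), 1 bar for the Ctrl-labelled library and 1 for the OE-labelled library, with the longest transcript as length. Chrna6 widens from 22.8% to 42.1%, and Chrna4 narrows from 36.5% to 24.1%.

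Genes of DA neurons also differed between the libraries. Of 16 markers of these neurons, 16 were called higher in the OE-labelled library, against 17.9% of all tested genes. The log2 fold changes of the 16 markers had a median of 1.26 and ranged from 0.75 to 2.19. Their summed normalized counts were 28892 and 67359, with 0 markers absent from both libraries. Th, the rate-limiting enzyme of dopamine synthesis, had 2499 and 9354 counts, and Slc6a3, the dopamine transporter, had 4955 and 15033. The log2 fold changes of Chrna6 and Chrna5 each lay above those of 13 of the 16 markers, and that of Chrnb3 above 10. Chrnb4 lay above 3 of the markers and Chrna3 above 1. Chrna4, Chrnb2 and Chrna7 lay below all 16, and Chrna2 lay above all 16.

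A ratio of 2 genes within a library does not depend on the scaling between libraries. There were 31.3 counts of Chrna6 per 100 counts of Th in the Ctrl-labelled library and 40.2 in the OE-labelled library, a log2 difference of 0.36 (exact conditional interval 0.23 to 0.49). Chrnb3 had 21.8 and 19.6 counts per 100 of Th, a log2 difference of -0.15 whose interval from -0.30 to 0.007 held 0. Chrna5 had 2.52 and 3.10 (interval -0.10 to 0.72) and Chrnb4 0.760 and 0.524 (interval -1.33 to 0.31), so neither was separated from Th at this depth. Relative to Th, the other members were lower in the OE-labelled library, except Chrna2. Per 100 counts of Th, Chrna4 had 78.8 and 36.1 counts, Chrnb2 had 63.0 and 22.9, Chrna7 had 6.04 and 2.06 and Chrna3 had 5.28 and 3.04, and all 4 intervals lay below 0. The 5 and 129 counts of Chrna2 gave a log2 difference to Th of 2.79 (interval 1.52 to 4.43).

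The reference gene mattered for some members, because Slc6a3 itself had a log2 difference of -0.30 to Th (interval -0.38 to -0.22). Relative to Slc6a3, Chrna6 had a log2 difference of 0.67 (interval 0.54 to 0.79). For Chrnb3 the log2 difference to Slc6a3 was 0.16 (interval 0.009 to 0.30), and for Chrna5 it was 0.60 (interval 0.20 to 1.02), so both intervals excluded 0 here and not relative to Th. Chrna4, Chrnb2, Chrna7 and Chrna3 were lower relative to Slc6a3 as well, with log2 differences of -0.82, -1.16, -1.25 and -0.50. These ratios show unequal change only. What part the difference in DA neuron markers has in the difference of the subunit genes was not tested.

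**Figure D4:**
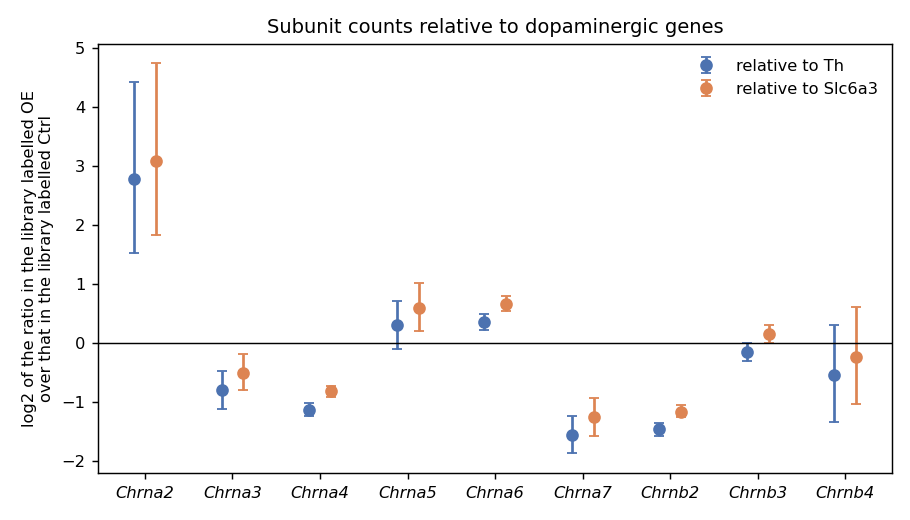
Log2 difference, the OE-labelled library over the Ctrl-labelled library, of each subunit's count relative to Th and relative to Slc6a3, with 95% exact conditional intervals that cover counting error only. Chrna6 lies above 0 for both references, at 0.36 and 0.67, and Chrna4, Chrnb2, Chrna7 and Chrna3 lie below 0 for both.

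The 7 nicotinic subunits of muscle and hair cells had few or no counts. Chrna10, Chrnd and Chrng had 0 counts in both libraries, and Chrna1, Chrna9 and Chrne had between 1 and 7. Only Chrnb1, a subunit of the muscle receptor, passed the filter, with 13 and 15 counts and a log2 fold change of -0.10 (interval -1.28 to 1.08).

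Tested were 8 genes for proteins that help nicotinic receptors to fold or that belong to the lynx family, whose members bind them at the membrane. Of the 8, 1 was called higher and 1 lower, against 17.9% higher and 16.6% lower among all tested genes. The median of the 8 log2 fold changes was 0.002, and its sign depended on the scaling. Ric3, a chaperone of nicotinic receptors, had 1852 and 2491 counts (0.11, interval 0.027 to 0.20). Tmem35, the row of the chaperone NACHO, had 1284 and 1723 counts (0.11, interval 0.006 to 0.22). The brake protein Lynx1 had 6598 and 7961 counts (-0.042, interval -0.090 to 0.005). Among its relatives, Ly6h was called higher with a log2 fold change of 0.26 (interval 0.14 to 0.38) and Lypd6b lower with -0.31 (interval -0.56 to -0.063).

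Genes that make and clear acetylcholine were mostly higher in the OE-labelled library, on low counts for those of cholinergic neurons. Of 7 genes tested, 6 were called higher and 1 lower, against 17.9% higher and 16.6% lower among all tested genes. The median log2 fold change of the 7 was 0.69. Slc18a3 passed the filter only through the OE-labelled library, and of the other 6 genes, which had at least 10 counts in both libraries, 5 were called higher and 1 lower, with a median of 0.57. Over the genes whose mean reached 100 counts the median was 0.39. Chat, which makes acetylcholine, had 10 and 39 counts (log2 fold change 1.61, interval 0.62 to 2.82), and Slc5a7, the choline transporter, had 54 and 124 (0.88, interval 0.41 to 1.37). Slc18a3, which loads acetylcholine into vesicles, had 1 and 27 counts, or 1.11 and 24.2 normalized counts, and the interval of its log2 ratio reached from 1.84 to 9.80. Ache, which breaks acetylcholine down and is also made by DA neurons, had 2981 and 4849 counts (0.39, interval 0.32 to 0.45), and its membrane anchor Prima1 had 103 and 207 (0.69, interval 0.35 to 1.05). Bche, the second cholinesterase, went the other way with 260 and 183 counts (-0.82, interval -1.10 to -0.54). Colq, called higher with 41 and 70 counts, had an interval from -0.12 to 1.05 that held 0.

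Muscarinic receptors, the other class of acetylcholine receptors, had a median log2 fold change of 0.10 over 5 genes, and one of -0.032 over those whose mean reached 100 counts. Of the 5, 2 were called higher and 1 lower, against 17.9% higher and 16.6% lower among all tested genes. Chrm5, the muscarinic receptor known from DA neurons, had 101 and 159 counts (0.34, interval -0.027 to 0.72), and Chrm4 had 36 and 54 (0.27, interval -0.36 to 0.92). Both passed the threshold with intervals that held 0. Chrm1 was called lower with 125 and 116 counts (-0.42, interval -0.80 to -0.045), and Chrm2 and Chrm3, with -0.16 and 0.10, were not called.

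**Figure D5:**
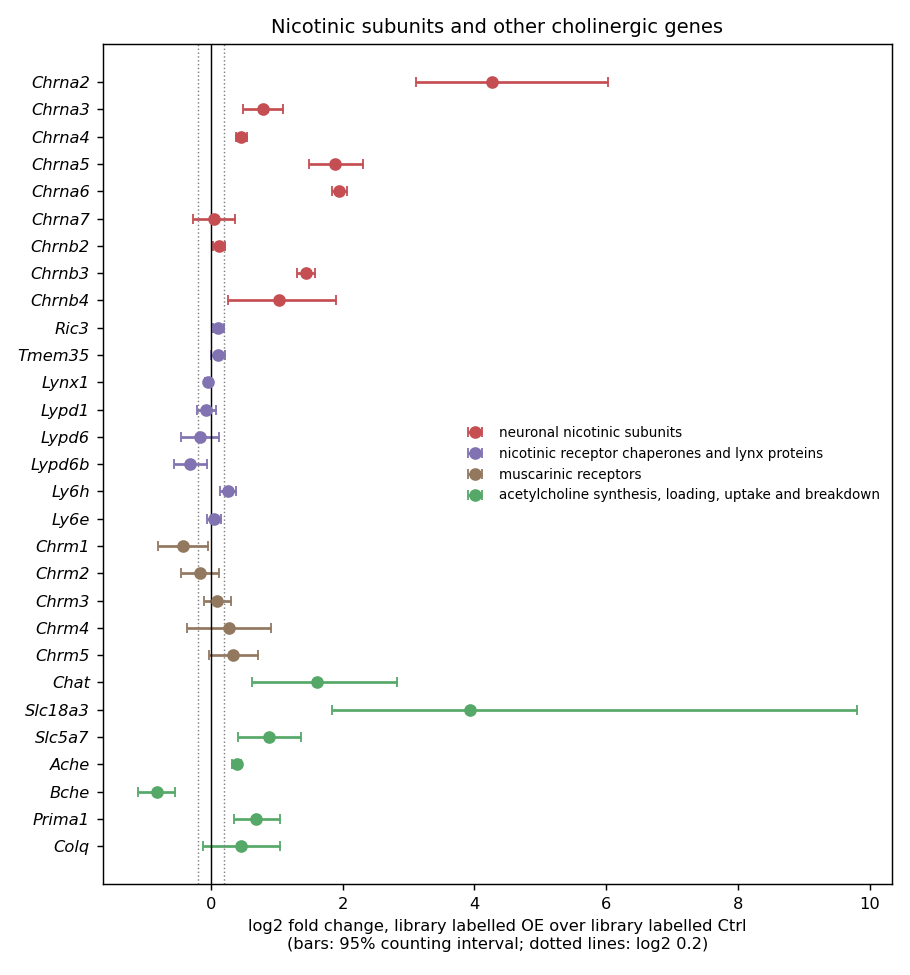
Log2 fold change, the OE-labelled library over the Ctrl-labelled library, of the subunit genes and of the tested genes of 3 further cholinergic lists, with 95% counting intervals and dotted lines at log2 0.2 to either side of 0. Chrna5, Chrna6 and Chrnb3 lie at 1.88, 1.95 and 1.44, and the 8 chaperone and lynx genes lie between -0.31 and 0.26.

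Markers of other cells and regions differed as well, where 17.9% of all tested genes were called higher and 16.6% lower. Of 14 thalamus markers, 12 were called lower in the OE-labelled library and 1 higher, with a median of -1.48 and summed normalized counts of 24410 and 15564. Of the 13 with at least 10 counts in both libraries, 11 were called lower and 1 higher. Among the markers of the medial habenula, 4 of 6 were called higher and 1 lower, with a median of 0.35. The counting interval excluded 0 for 3 of those called higher and for 0 called lower. There, Tac2 had 35 and 85 counts, and Pou4f1, a transcription factor of habenular neurons, had 89 and 167. Of the 2 most abundant of these markers, Lrrc55 with 440 and 757 counts was called higher, and Tac1 with 604 and 732 was not called. Of markers of cranial motor neurons, Phox2a and Mnx1 had 0 counts in both libraries, and of the 3 that passed the filter 2 were called higher and 1 lower. Prph had 48 and 104 counts (0.80, interval 0.30 to 1.33) and Calca went the other way with 121 and 75 (log2 interval -1.44 to -0.58). The median of the 3 was the 0.65 of Isl1, which had 7 and 14 counts and an interval from -0.72 to 2.24 that held 0, and the median without Isl1 was -0.10. Of 5 serotonergic markers tested, 2 were called higher and 0 lower, with a median of 0.093. Slc6a4 passed the filter only through the OE-labelled library. Of the 4 with at least 10 counts in both libraries, 1 was called higher and 0 lower. Tph2 with 19 and 63 counts and Slc6a4 with 1 and 24 were called, and the more abundant Gata3 with 203 and 269 and Htr1a with 307 and 407 were not. GABAergic and pan-neuronal markers had medians of -0.011 and 0.14. The medians of astrocyte, oligodendrocyte and microglia markers were -0.10, -0.32 and -0.12. What part any of these has in the differences of the subunit genes was not tested, and with a single library for each genotype the extent of the dissected tissue and the genotype cannot be told apart.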

How the data were processed

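RNA from the ventral midbrain was made into stranded libraries of polyadenylated RNA, which a sequencing company read from both ends and analysed in its own pipeline. The deposited values are expected counts that the authors had from RSEM, which estimates how many reads belong to each gene, for 31252 gene rows without scaling between libraries. Of the values above 0, 92.2% are exactly whole, and so are those of all 9 members. The submitters' processing notes list the build mm10. The aligner, the annotation and the RSEM version are not given in the sources used here. RSEM shares reads between similar transcripts, so related genes are less certain than others.

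Each library took its group from the number shared by its column and its sample title (77 and 78). Normalized counts were scaled with TMM (factors 1.0053 and 0.9947, edgeR 4.0.16 in R 4.3.3) to the geometric mean of the library sizes. A pseudocount of 0.5 was added to normalized counts before log2 ratios were taken, and the 15246 genes whose mean reached 10 counts were tested for passing log2 0.2. Counts were rounded for the 95% intervals, which are Clopper-Pearson on the split of 2 counts, Poisson for levels and conditional for ratios (scipy 1.17.1, Python 3.11.15), and cover counting error only. No p-value was computed. Transcript lengths and coordinates came from GENCODE M21 (GRCm38) and promoters from RefSeq. Alternatives were other scalings (DESeq2 1.42.0 among them), pseudocounts, filters, thresholds and lengths. For 1 scaling, 3 mitochondrial rows were left out. The computation of the intervals was checked on simulated counts that carried only the counting error these intervals assume. That check could not show whether the assumption holds, and it does not cover differences between animals or dissections. The members and lists were chosen with earlier results of these data known. By the rule for naming, all members, the tested cholinergic genes, Nr2f2, Th, Slc6a3 and, of each marker list, the 2 most abundant and the 2 with the largest changes could be named. Other nicotinic subunits under the filter, absent markers and Isl1 were named after their values were seen. The counts over genes with at least 10 counts in both libraries were also chosen after seeing the data, and no share over all genes was computed with that filter. Figures were drawn with matplotlib 3.10.9.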

Additional observations from a re-analysis of the deposited data

How the results depend on the processing

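No paired analysis was possible because there is a single library for each genotype. All 45 alternative values of the 9 members' log2 fold changes, from 4 other scalings and a pseudocount of 5, stayed above 0 and inside the counting interval, and no scaling moved the median of all tested genes by over 0.1. The ratios to Th also stayed inside their intervals with a pseudocount of 5. A list's median has no interval. The median log2 fold change of the chaperone and lynx genes was -0.014 with total counts, -0.004 with the upper quartile, 0.001 with DESeq2 size factors and -0.011 with total counts without mitochondrial genes, and that of GABAergic markers was -0.026, -0.017 and -0.024 with total counts, the upper quartile and total counts without the mitochondrial rows. Where the mean had to reach 100 counts, the median was -0.032 for muscarinic receptors, 0.39 for the acetylcholine genes and -0.24 for microglia markers. It was 0.17 for the other nicotinic subunits without a filter and -0.10 for cranial motor neuron markers with at least 10 counts in both libraries, a filter chosen after seeing the data. The other medians kept their sign and moved by at most 1.5 times. Over all genes, the counts higher and lower were 1509 and 1396 where the interval had to exclude 0, 233 and 195 past log2 1, 4513 and 4497 without a filter, and 1522 and 1377 with a mean of at least 100 counts, since each changes which genes can pass. Shares of the summed subunit level depended on length, as its construction implies. With median transcript lengths they were, in the Ctrl-labelled and OE-labelled libraries, 76.8% and 64.7% for Chrna4, 7.46% and 17.6% for Chrna6, 7.11% and 4.75% for Chrnb2, and 4.66% and 7.73% for Chrnb3. Without length correction they were 14.9% and 31.2% for Chrna6 and 30.0% and 17.7% for Chrnb2, and in the OE-labelled library 28.0% for Chrna4 and 15.2% for Chrnb3. The depth limits Chrna2 and Chrnb4 most, with 5 and 19 counts in the Ctrl-labelled library.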
